A study of Homo sapiens with 6 samples.

Results

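YAP1 and WWTR1 (the gene for TAZ) encode the transcriptional coactivators of the Hippo pathway, and TEAD1, TEAD2, TEAD3 and TEAD4 encode the DNA-binding factors through which they act. These 6 genes and 4 genes known as direct targets, LATS2, AMOTL2, AJUBA and ANKRD1, were chosen by name from pathway knowledge, 10 genes of the 60504 in the count table, and the rule uses no measured value. The choice was made with earlier results of these data known. They were measured in SK-MEL-28, a human melanoma line long kept in culture. Cells carrying an empty plasmid (EV) gave 3 libraries, and cells carrying a plasmid for the class I histone deacetylase HDAC8 gave 3 libraries, with biological replicates numbered 1 to 3 in each group. Per the study's methods, both populations were transfected with Lipofectamine and kept in hygromycin, so the selection agent was shared by control and HDAC8 cells, and the methods do not say how many clones each population held. The question addressed by the comparison was which transcripts differ when HDAC8 is introduced into melanoma cells.

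In the Hippo pathway the kinases MST1 and MST2 (genes STK4 and STK3) activate the kinases LATS1 and LATS2, which phosphorylate YAP and TAZ and keep them out of the nucleus. When the kinases are less active, YAP and TAZ enter the nucleus, bind TEAD factors and switch on genes for growth, adhesion and the cytoskeleton, among them genes such as LATS2 and AMOTL2 whose products restrain YAP and TAZ in turn. In melanoma, YAP, TAZ and TEAD activity is best known from dedifferentiated and invasive cells. Much of this control acts on the proteins, which RNA levels do not show.

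The libraries held 20850018 to 29822917 counts, so that 3 counts corresponded to 0.102 to 0.148 CPM (counts scaled to library size, with library sizes adjusted by TMM, a normalization that aligns the bulk of genes between libraries). HDAC8 itself averaged 14.5 ± 2.48 CPM in EV and 14.3 ± 0.881 CPM in HDAC8 (SD, n = 3 each), with a log2 fold change of -0.02 (SE 0.13, edgeR adjusted p = 0.924). The introduced gene therefore did not separate the groups, and every direction below is that of the libraries labelled HDAC8 relative to the libraries labelled EV. Melanocyte lineage markers were expressed in all libraries (6 of 6 tested, summed level 6376 to 6761 CPM in EV and 7411 to 7936 CPM in HDAC8). The larger sum came mostly from PMEL (4149 CPM in EV and 5254 CPM in HDAC8). Within this list 3 markers were higher and 2 lower at an edgeR adjusted p below 0.05 (11.1% and 11.7% of all tested genes). The higher ones were TYR (log2 fold change 0.44, edgeR adjusted p = 1.12e-05), PMEL (0.34, 0.000154) and SOX10 (0.23, 0.00463). The lower ones were DCT (log2 fold change -1.77, edgeR adjusted p = 1.13e-09) and MITF (-0.14, 0.0263), and MLANA did not pass (-0.08, 0.340). Of 6 fibroblast markers 3 were tested, with summed levels of 42.4 to 44.7 CPM in EV and 53.8 to 58.7 CPM in HDAC8, most of it LUM, while COL1A2, COL3A1 and DCN held 0 to 16 counts. LUM was higher (log2 fold change 0.44, edgeR adjusted p = 0.000615), as were 11.1% of all tested genes. The other tested markers, COL1A1 (-0.50, 0.393) and PDGFRB (-0.15, 0.653), had negative values and did not pass. Of 6 keratinocyte markers only KRT10 was tested (summed level 8.31 to 10.1 CPM in EV and 6.29 to 8.83 CPM in HDAC8, with KRT1 and DSG3 at 0 in every library), and of 6 blood and endothelial markers only VWF was tested (summed level 2.89 to 3.09 CPM in EV and 2.76 to 3.73 CPM in HDAC8, with CD3E at 0 in every library). The part of LUM-expressing cells in the results below was not tested.

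TEAD factors recognise a short DNA core, GGAATG on one strand and CATTCC on the other, and the promoters of these genes were searched for it because several of them are regarded as TEAD targets. RefSeq promoter windows (GRCh38.p14, 250 bases before and 50 after the start) were at hand for 8 of the 10 genes, 12 windows in all, with none for TEAD1 and TEAD4. The core stood in 5 of the 12 windows, 1 each for YAP1, LATS2, AMOTL2, AJUBA and ANKRD1, and in 14.0% of all 35116 windows of that length. ANKRD1, a cardiac and endothelial ankyrin repeat gene used widely as a YAP and TAZ reporter, held it at 2 places, with its first base 220 and 128 bases before the start. YAP1 held it 162 bases before the start. The 250 bases before each of these starts are shown with the core in capitals, because they are the windows in which the core lies farthest upstream. They cover chr11:102110197-102110446 (plus strand) for YAP1 and chr10:90921088-90921337 (minus strand) for ANKRD1.
YAP1: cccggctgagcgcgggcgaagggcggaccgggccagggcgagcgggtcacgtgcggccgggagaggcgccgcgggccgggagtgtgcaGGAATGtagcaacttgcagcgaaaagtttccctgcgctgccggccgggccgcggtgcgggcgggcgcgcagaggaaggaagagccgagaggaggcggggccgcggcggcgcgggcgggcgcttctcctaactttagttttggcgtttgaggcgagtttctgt
ANKRD1: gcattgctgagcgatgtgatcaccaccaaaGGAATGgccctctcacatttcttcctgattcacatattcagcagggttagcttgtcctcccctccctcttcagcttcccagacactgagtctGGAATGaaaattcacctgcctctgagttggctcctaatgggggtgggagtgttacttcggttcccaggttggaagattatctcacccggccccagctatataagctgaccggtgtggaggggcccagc

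For the other genes with a match, a stretch of 30 bases around the core shows its setting, again with the core in capitals and read along the strand of the gene. The stretches are chr13:21061560-21061589 (minus strand) for LATS2, chr3:134374499-134374528 (minus strand) for AMOTL2 and chr14:22976884-22976913 (minus strand) for AJUBA. In LATS2 the core began at base 10 after the start, in AMOTL2 69 bases before the start of the second of its 2 windows and in AJUBA 59 bases before the start of the second of its 2 windows. Annotated exons of the same gene cover 115 of the 250 bases before that AMOTL2 start and all 250 before that AJUBA start.
LATS2: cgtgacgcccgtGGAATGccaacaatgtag
AMOTL2: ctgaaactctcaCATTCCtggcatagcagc
AJUBA: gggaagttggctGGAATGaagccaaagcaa
No match lay in the windows of WWTR1 (2 windows), TEAD2 (2 windows) or TEAD3, which says only that these letters are not in those windows. The AP-1 core TGANTCA, which reads the same on either strand, stood only in the ANKRD1 window among the 12, where it did not overlap the TEAD cores, and in 7.71% of all windows. A match is a description of the sequence and not evidence of binding.

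The 2 coactivators moved in opposite directions. YAP1 was higher and WWTR1, the more abundant of the pair, was lower in the libraries labelled HDAC8. Across the 10 genes, 9 passed the filter on low counts and were tested. At an edgeR adjusted p below 0.05, YAP1 and TEAD2 were higher (11.1% of all 16195 tested genes were higher by this rule), and WWTR1, TEAD3 and AMOTL2 were lower (11.7% of all tested genes were lower by this rule). The other 4, TEAD1, TEAD4, LATS2 and AJUBA, did not pass. None of the 9 reached the study's second threshold, an absolute log2 fold change of 0.58. Of all tested genes, 4.07% were higher and 3.45% lower by both thresholds together. The largest change in size among the 9 was -0.39, so with the fold threshold the edgeR count was 0 under any rule for p. It was also 0 with DESeq2. The median log2 fold change of the 9 was -0.07, with a range of -0.39 to 0.31, and that of all tested genes was 0.01. In 6 of the 9 the 3 values of one group lay wholly above those of the other, as they did in 38.0% of all tested genes.

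The numbers of higher and lower genes in the set changed when single libraries were left out. The count of higher genes was 1 without EV replicate 1, EV replicate 2, EV replicate 3 or HDAC8 replicate 3 and 0 without HDAC8 replicate 2, and the count of lower genes was 1 without EV replicate 1 or EV replicate 3. Of all tested genes, 1790 were higher and 1891 lower with all 6 libraries. With 1 library left out these numbers were 1270 to 1999 and 1289 to 2119, larger than before only without HDAC8 replicate 3. Among the 5 called genes of the set, only WWTR1 kept its call in each of 12 alternatives (adjusted p 1.68e-12 to 0.00321).

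**Figure D1:**
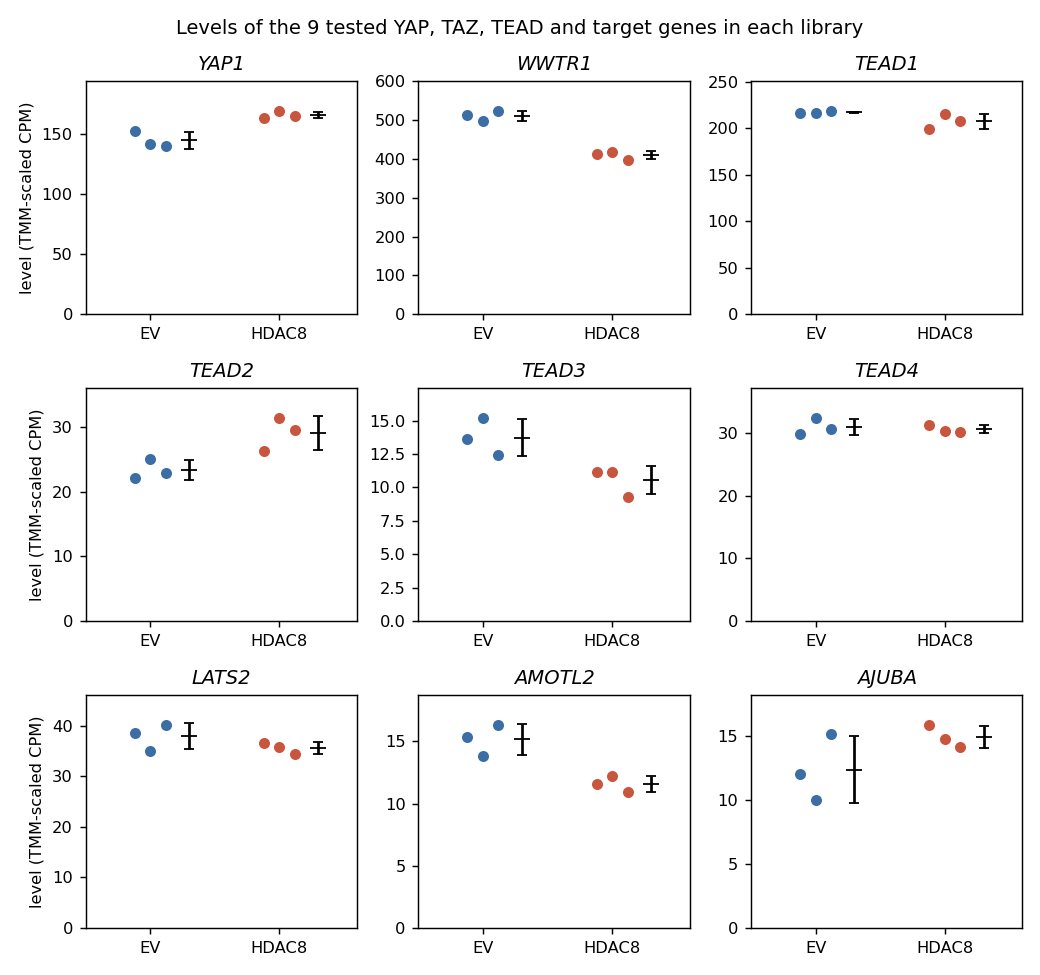
Level of each of the 9 tested genes in TMM-scaled CPM (vertical axis, starting at 0) in the 3 libraries labelled EV (blue) and the 3 labelled HDAC8 (red), with the mean and SD in black. YAP1 and TEAD2 lie higher and WWTR1, TEAD3 and AMOTL2 lower in HDAC8, while the groups overlap for TEAD4, LATS2 and AJUBA.

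YAP1 (ENSG00000137693) lies on chromosome 11 from 102110447 to 102233424 on the plus strand (GENCODE 44 on GRCh38, as for all positions of genes here). It was measured at 153, 142 and 140 CPM in the libraries labelled EV and at 164, 169 and 165 CPM in those labelled HDAC8. All 3 HDAC8 values lay above all 3 EV values. The log2 fold change was 0.19 (SE 0.050, edgeR adjusted p = 0.0143), a level 14.4% higher. Without EV replicate 2, EV replicate 3 or HDAC8 replicate 2 the adjusted p was 0.0612, 0.0897 and 0.0680. An antisense long noncoding RNA, ENSG00000254422, covers 9.95% of the exon bases of YAP1. Whether the counting used the strand is not given in the sources used here, so reads from the shared stretch cannot be assigned to either gene with certainty.

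WWTR1 (ENSG00000018408) encodes TAZ, the paralog of YAP, and lies on chromosome 3 from 149517235 to 149736714 on the minus strand. Its level was 514, 498 and 522 CPM in EV and 414, 418 and 398 CPM in HDAC8. The groups were far apart relative to the spread within them, with means of 511 ± 12.7 and 410 ± 10.5 CPM (SD, n = 3 each). The log2 fold change was -0.32 (SE 0.042, edgeR adjusted p = 0.000204), a decrease to 0.802 times the EV level. WWTR1-AS1, an antisense RNA, covers 9.05% of the exon bases of WWTR1. The cells were sequenced in bulk, so fewer cells expressing a gene and less RNA per cell cannot be told apart here or below.

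The balance of the pair was compared within each library, where sequencing depth cancels. For each YAP1 count there were 3.37, 3.51 and 3.73 WWTR1 counts in EV and 2.53, 2.48 and 2.42 in HDAC8. All 3 HDAC8 ratios lay below all 3 EV ratios, with means of 2.47 ± 0.056 and 3.53 ± 0.183 (SD, n = 3 each). Because YAP1 was higher and WWTR1 lower without overlap, the ratios had to separate too. The exact permutation test gave a two-sided p of 0.1, the smallest that 3 against 3 libraries allow. That value was fixed by the separation of the 2 genes, so the ratio gives a size and no further test. On the scale of CPM per kilobase of exon, which permits a comparison of levels between genes, WWTR1 lay at 2.67 ± 0.139 times the level of YAP1 in EV and at 1.87 ± 0.0423 times in HDAC8. With the longest transcript as gene length these ratios were 3.79 and 2.65, so the size of the excess depends on the length used. The summed level of the pair was 667, 639 and 662 CPM in EV and 578, 587 and 563 CPM in HDAC8, again without overlap (exact permutation p = 0.1, two-sided). The gap between the groups in WWTR1 was wider than any difference between libraries in YAP1. The sums therefore had to separate as well, and they give a size and no further test.

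The TEAD family was tested next. Its members share a DNA-binding domain and bind the same core. TEAD1 (ENSG00000187079, chromosome 11, 12674421 to 12944737, plus strand) stood at 217, 217 and 218 CPM in EV and 199, 216 and 208 CPM in HDAC8. The highest HDAC8 value lay just under the lowest EV value, but the difference did not pass the test (log2 fold change -0.07, SE 0.046, edgeR adjusted p = 0.359). TEAD4 (ENSG00000197905, chromosome 12, 2959330 to 3040676, plus strand) stood at 29.9, 32.3 and 30.6 CPM in EV and 31.2, 30.3 and 30.1 CPM in HDAC8, and the groups overlapped. Its log2 fold change was -0.02 (SE 0.07, edgeR adjusted p = 0.899), and it was 0.013 without EV replicate 2.

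TEAD2 (ENSG00000074219, chromosome 19, 49340595 to 49362457, minus strand), the family member best known from early embryos and neural precursors, rose. It stood at 22.1, 25.1 and 23.0 CPM in EV and at 26.3, 31.4 and 29.6 CPM in HDAC8, with every HDAC8 value above every EV value. The log2 fold change was 0.31 (SE 0.089, edgeR adjusted p = 0.0258), a level 1.24 times that of EV. Without EV replicate 1, EV replicate 3, HDAC8 replicate 2 or HDAC8 replicate 3 the adjusted p was 0.115, 0.0946, 0.125 and 0.0542. Exons of CD37, a leukocyte tetraspanin gene on the opposite strand, cover 10.7% of the TEAD2 exon bases, and reads there cannot be assigned with certainty.

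TEAD3 (ENSG00000007866, chromosome 6, 35473597 to 35497079, minus strand), known from placenta, fell. Its level was 13.6, 15.2 and 12.4 CPM in EV and 11.1, 11.2 and 9.31 CPM in HDAC8, again without overlap. The log2 fold change was -0.38 (SE 0.12, edgeR adjusted p = 0.0444). This call was the least stable of the 5. The adjusted p was 0.0806 with DESeq2, and without EV replicate 1, 2 or 3 it was 0.111, 0.158 and 0.0506, and without HDAC8 replicate 1, 2 or 3 it was 0.0580, 0.0656 and 0.0980.

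On the scale of CPM per kilobase of exon, the order of the TEAD levels was the same in both groups. TEAD1 led with 20.3 ± 0.079 in EV and 19.4 ± 0.763 in HDAC8, followed by TEAD4 with 13.6 ± 0.55 and 13.4 ± 0.261, TEAD2 with 7.85 ± 0.512 and 9.76 ± 0.869, and TEAD3 with 4.50 ± 0.456 and 3.45 ± 0.347 (SD, n = 3 each). Neighbours in this order differed by more than their spread in both groups. The summed TEAD level was 46.2 ± 1.39 in EV and 46.1 ± 1.46 in HDAC8 (exact permutation p = 0.8, two-sided), a difference smaller than the spread between replicates. Within that sum the share of TEAD2 was 16.4%, 17.6% and 16.9% in EV and 19.7%, 22.1% and 21.7% in HDAC8, and the share of TEAD3 was 9.86%, 10.4% and 8.92% in EV and 8.15%, 7.67% and 6.69% in HDAC8. Neither share overlapped between the groups (exact permutation p = 0.1 for each, two-sided, the smallest possible). Both genes had already separated without overlap, and the sum hardly differed. The shares therefore restate those differences as sizes and are no further test. The share of TEAD1 was 43.9% ± 1.38 and 42.1% ± 0.522 (exact permutation p = 0.2), and with the longest transcript as gene length it was 41.7% and 39.8%.

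**Figure D2:**
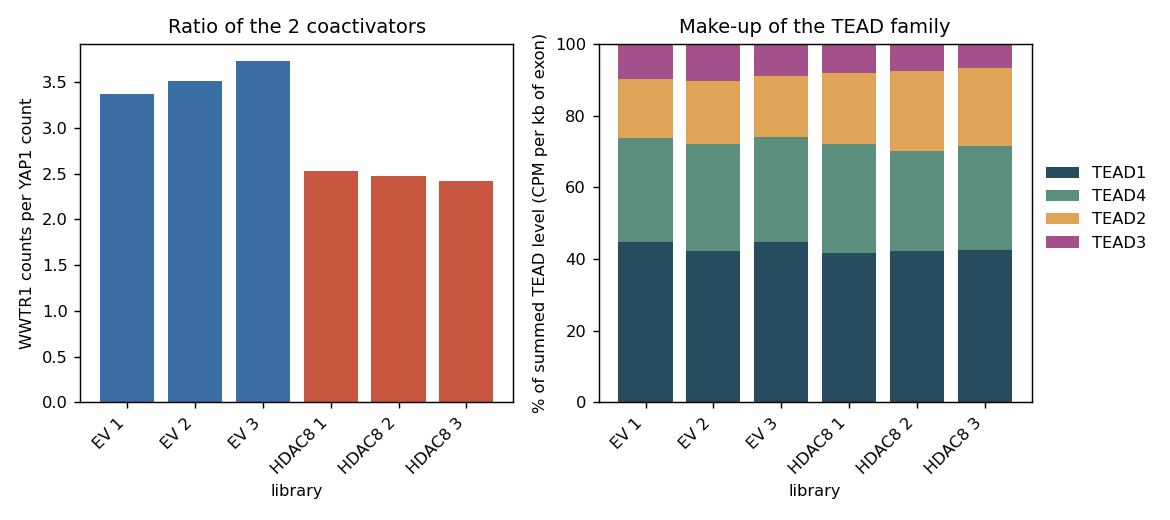
Left, WWTR1 counts per YAP1 count in each library (bars start at 0), between 3.37 and 3.73 in EV and between 2.42 and 2.53 in HDAC8. Right, share of each TEAD factor in the summed TEAD level (percent of CPM per kilobase of exon) in each library, where the TEAD2 share is larger and the TEAD3 share smaller in the 3 libraries labelled HDAC8.

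Of the 4 target genes, AMOTL2 fell, LATS2 and AJUBA did not pass the test, and ANKRD1 was barely detected. AMOTL2 (ENSG00000114019, chromosome 3, 134355347 to 134375479, minus strand) encodes an angiomotin, a junction protein that binds YAP and holds it in the cytoplasm. Its level was 15.4, 13.8 and 16.3 CPM in EV and 11.5, 12.2 and 10.9 CPM in HDAC8. No HDAC8 value reached the lowest EV value, and the log2 fold change of -0.39 (SE 0.11, edgeR adjusted p = 0.0211) was the largest in size among the 9 tested genes. Without EV replicate 1 or EV replicate 3 the adjusted p was 0.0735 and 0.102. A processed pseudogene on the same strand, RPL39P5, covers 2.89% of its exon bases.

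LATS2 (ENSG00000150457, chromosome 13, 20973036 to 21061586, minus strand), the kinase that phosphorylates YAP and TAZ and is itself a target of them, stood at 38.6, 35.1 and 40.1 CPM in EV and 36.7, 35.7 and 34.4 CPM in HDAC8. The groups overlapped, and the log2 fold change was -0.09 (SE 0.073, edgeR adjusted p = 0.419). AJUBA (ENSG00000129474, chromosome 14, 22971177 to 22982551, minus strand), a LIM protein that binds LATS kinases, stood at 11.98, 9.94 and 15.1 CPM in EV and 15.8, 14.8 and 14.1 CPM in HDAC8. EV replicate 3 lay among the HDAC8 values and the other EV libraries lay below them. The log2 fold change was 0.27 (SE 0.14, edgeR adjusted p = 0.209), and without EV replicate 3 it was 0.44 with an adjusted p of 0.0488. ANKRD1 (ENSG00000148677, chromosome 10, 90912096 to 90921087, minus strand) held 0, 0 and 4 counts in EV and 0, 0 and 2 counts in HDAC8. Both groups were at or near the floor of 3 counts per library, so no fold change is given, and a difference was not detectable at this depth.

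Per kilobase of exon, the levels of the 9 detected genes in EV ran from WWTR1 (61.2 ± 1.52) and YAP1 (23.0 ± 1.09) through the TEAD factors, with LATS2 (6.76 ± 0.463) between TEAD2 and TEAD3, down to AMOTL2 (2.34 ± 0.194) and AJUBA (2.10 ± 0.441). AMOTL2 and AJUBA did not differ beyond their spread in EV. In HDAC8, AJUBA (2.53 ± 0.148) stood above AMOTL2 (1.79 ± 0.0997) in every library.

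The wider pathway was described from lists of its parts, which also hold LATS2 (core kinases) and AMOTL2 and AJUBA (upstream regulators), so the lower AMOTL2 is counted again below. Of 12 core kinases and their partners, all 12 were tested. At the 0.05 threshold 0 rose and 2 fell (11.1% and 11.7% of all tested genes), with a median log2 fold change of -0.01. The lower genes were STK4, which encodes MST1, and NF2, which encodes the scaffold merlin that brings LATS kinases to the membrane. STK4 lay at 139 ± 4.36 CPM in EV and 124 ± 2.23 CPM in HDAC8 (SD, n = 3 each, log2 fold change -0.17, SE 0.048, edgeR adjusted p = 0.0250). NF2 lay at 238 ± 13.9 CPM and 211 ± 4.68 CPM (log2 fold change -0.18, SE 0.052, edgeR adjusted p = 0.0284). The adjusted p of STK4 was 0.118, 0.0656 and 0.0725 without EV replicate 1, EV replicate 3 or HDAC8 replicate 2, and that of NF2 was 0.122, 0.140 and 0.0641 without EV replicate 1, EV replicate 3 or HDAC8 replicate 1. STK3, which encodes MST2, had a log2 fold change of -0.18 (edgeR adjusted p = 0.270), and LATS1 had one of 0.15 (edgeR adjusted p = 0.123). Neither LATS kinase passed the test.

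Among 32 upstream regulators 31 were tested, 5 were higher and 8 lower, AMOTL2 included (11.1% and 11.7% of all tested genes), with a median log2 fold change of -0.07. FAT4 and WWC1 were among those that passed both thresholds. FAT4, a giant atypical cadherin, held 43, 33 and 46 counts in EV and 360, 210 and 316 counts in HDAC8. Its level rose from 1.79 ± 0.263 to 12.1 ± 1.63 CPM (SD, n = 3 each, log2 fold change 2.75, SE 0.19, edgeR adjusted p = 7.06e-07). WWC1, which encodes KIBRA, a scaffold that works with merlin to activate LATS kinases, fell from 12.5 ± 1.24 to 3.74 ± 1.30 CPM (log2 fold change -1.75, SE 0.21, edgeR adjusted p = 9.88e-05).

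Paralogs of these regulators, chosen after their values were seen, did not all move with them. All 3 angiomotins fell. AMOT (log2 fold change -0.42, SE 0.056, edgeR adjusted p = 0.000227) and AMOTL1 (log2 fold change -0.38, SE 0.046, edgeR adjusted p = 0.000100) were both lower, as AMOTL2 was. AMOT stood at 147, 134 and 150 CPM in EV and 109, 103 and 110 CPM in HDAC8, and AMOTL1 at 158, 154 and 153 CPM in EV and 121, 119 and 116 CPM in HDAC8. In neither gene did the groups overlap. WWC2, the paralog of WWC1, had a log2 fold change of 0.17 (SE 0.073, edgeR adjusted p = 0.115). FAT1, far more abundant than FAT4 in CPM, fell from 959 ± 30.6 to 823 ± 35.6 CPM (log2 fold change -0.22, SE 0.045, edgeR adjusted p = 0.00385).

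**Figure D3:**
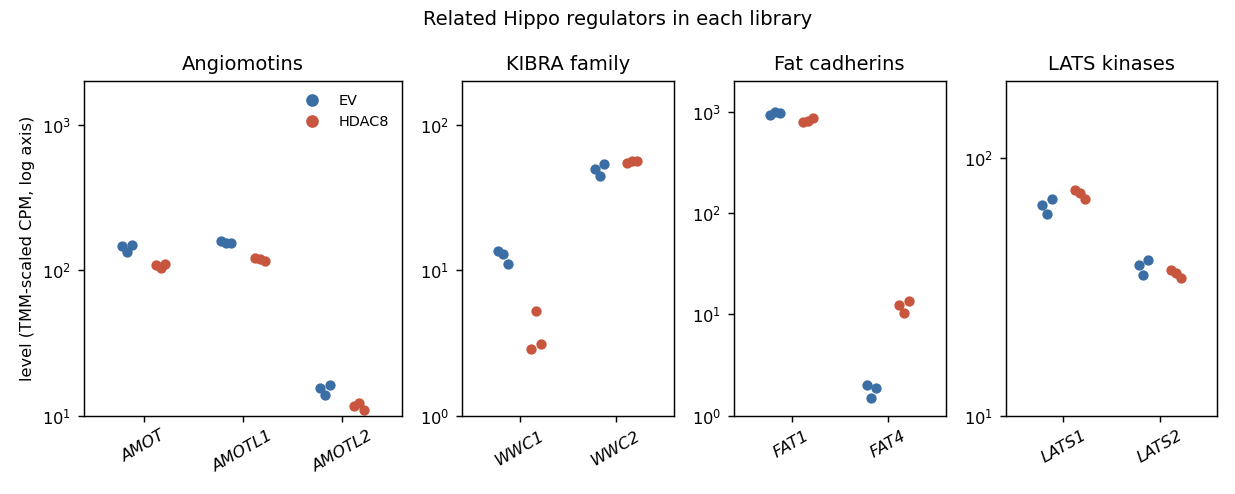
Level of related Hippo regulators in TMM-scaled CPM (log axis) in the 3 libraries labelled EV (blue) and the 3 labelled HDAC8 (red), each point 1 library. All 3 angiomotins lie lower in HDAC8, WWC1 is lower while WWC2 is not, FAT4 is higher while FAT1 is lower, and the groups overlap for both LATS kinases.

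Further called regulators, also chosen after their values were seen, were higher FRMD6, PTPN14, PATJ and SLMAP and lower SCRIB and DLG1. FRMD6, a FERM-domain partner of the pathway, was the most abundant of these in CPM, rising from 470 ± 11.4 to 670 ± 9.24 CPM (log2 fold change 0.51, SE 0.040, edgeR adjusted p = 2.73e-06). SLMAP, a subunit of the phosphatase complex that holds MST kinases inactive, had a log2 fold change of 0.43, PATJ, a polarity scaffold, one of 0.34, and PTPN14, a phosphatase that binds YAP, one of 0.26. The polarity genes SCRIB and DLG1 each had a log2 fold change of -0.28. PATJ had an adjusted p of 0.0578 without EV replicate 3, and SCRIB had 0.0954 without EV replicate 3 and 0.0539 without HDAC8 replicate 1. Of 4 TEAD cofactors only VGLL4, a competitor of YAP for TEAD, was tested, with 74.2 ± 2.65 CPM in EV and 72.3 ± 6.68 CPM in HDAC8 (log2 fold change -0.04, edgeR adjusted p = 0.762), while VGLL1, VGLL2 and VGLL3 held 0 to 4 counts per library. Over these 3 lists, 44 of 48 genes were tested, 5 were higher and 10 lower (11.1% and 11.7% of all tested genes), and the median log2 fold change was -0.06. Without EV replicate 3 the number of lower genes in the lists was 6, while that over all tested genes went from 1891 to 1312.

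Targets of YAP and TAZ were described from a target signature of 22 genes, which holds LATS2, AMOTL2 and ANKRD1. Of these, 20 were tested, 4 were higher and 4 lower (11.1% and 11.7% of all tested genes), with a median log2 fold change of -0.06. Leaving out the genes of the main set, 18 were tested, 4 were higher and 3 lower, and the median was 0.01, beside 0.01 for all tested genes. CCN1 and CCN2, the secreted matricellular proteins most often used as readouts, did not pass. CCN1 held 22, 45 and 38 counts in EV and 69, 26 and 49 counts in HDAC8, and the groups overlapped (log2 fold change 0.33, SE 0.37, edgeR adjusted p = 0.587). CCN2 held 268, 305 and 319 counts in EV and 306, 222 and 289 counts in HDAC8 (log2 fold change -0.22, SE 0.11, edgeR adjusted p = 0.212). Scaled to library size these were 12.44, 13.78 and 12.98 CPM in EV and 10.39, 10.96 and 12.46 CPM in HDAC8. The groups overlapped only in that HDAC8 replicate 3 lay just above EV replicate 1.

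RBMS3, an RNA-binding protein gene, was the only one of the 22 to pass both thresholds, rising from 24.3 ± 0.640 to 41.8 ± 3.06 CPM (SD, n = 3 each, log2 fold change 0.78, SE 0.077, edgeR adjusted p = 1.81e-05). The remaining called targets were chosen after their values were seen. DOCK5, a guanine nucleotide exchange factor for Rac, had a log2 fold change of 0.50 and ARHGEF17, another exchange factor, of 0.32, and PTPN14 is given above. ASAP1, an ARF regulator of adhesion and membrane traffic, fell from 235 ± 4.99 to 163 ± 9.31 CPM (log2 fold change -0.53, SE 0.051, edgeR adjusted p = 1.77e-05). MYOF, a membrane repair gene, had a log2 fold change of -0.48 and NT5E, which encodes the ectoenzyme CD73, of -0.30. NT5E did not pass without EV replicate 1 (adjusted p = 0.0672), EV replicate 2 (0.103), HDAC8 replicate 1 (0.0705) or HDAC8 replicate 2 (0.0833). AXL, a receptor tyrosine kinase, was low at 4.03 ± 1.06 CPM in EV and 2.28 ± 0.551 CPM in HDAC8, with a log2 fold change of -0.83 and an edgeR adjusted p of 0.0546. It passed with no filter on low counts (0.0310), with at least 10 counts in every library (0.0390), without EV replicate 1 (0.0431) and without HDAC8 replicate 2 (0.0394).

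**Figure D4:**
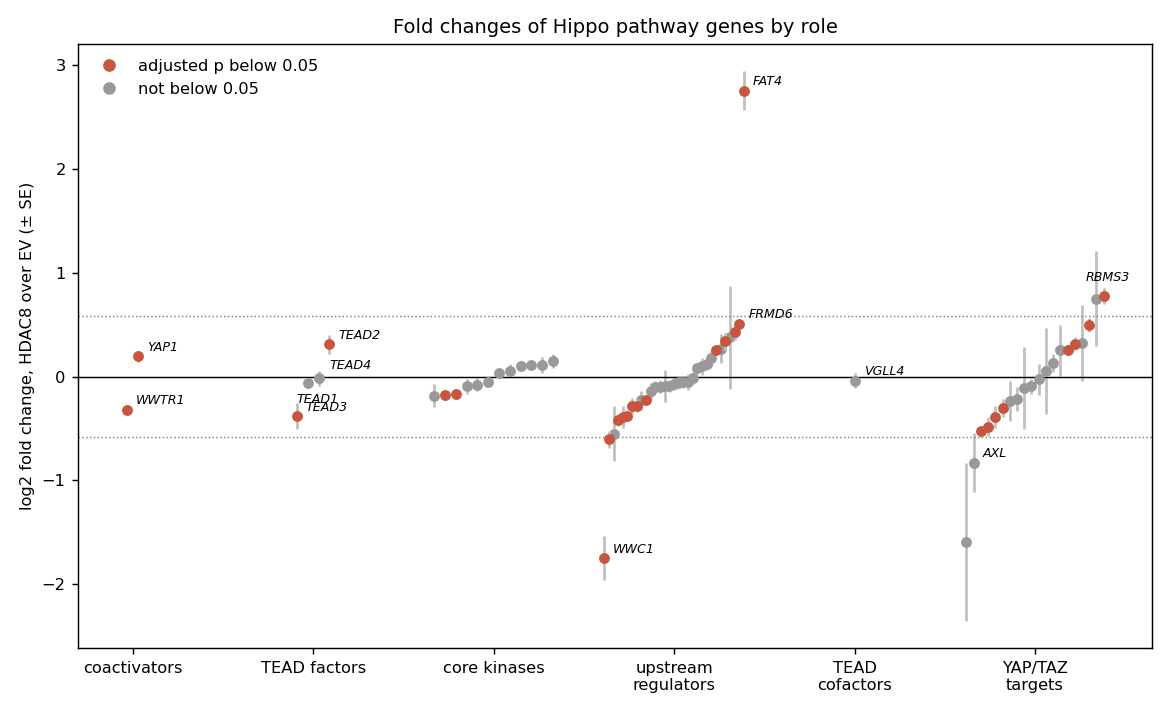
Log2 fold change, HDAC8 over EV, with its SE for each tested gene, grouped by role in the pathway (vertical axis in log2 units, dotted lines at the threshold of 0.58), with genes at an adjusted p below 0.05 in red. Most genes lie between the dotted lines, and FAT4 (2.75), WWC1 (-1.75) and RBMS3 (0.78) are among those outside them in red.

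Each gene was also set beside its neighbours on the chromosome, taken as up to 25 nearest on either side among tested genes with at least 10 CPM. LATS2 had 32 neighbours and TEAD4 had 39, against 50 for the others, because fewer such genes lay on 1 side. The neighbours of WWTR1 had a median log2 fold change of -0.17 and those of AMOTL2 one of -0.14, both below that of all tested genes, against -0.32 and -0.39 for the genes themselves. These windows lie on the same chromosome and overlap, from 138.494 to 142.449 megabases. The neighbours of LATS2 on chromosome 13 had a median of -0.14, lower than LATS2 itself at -0.09. With up to 10 nearest genes on either side the median was -0.23 around WWTR1 (20 genes) and -0.22 around LATS2 (17 genes). YAP1 (0.19) stood above the median of its neighbours (0.02) but only at their upper quartile (0.19), and with the 10 nearest on either side it lay within their quartiles (upper quartile 0.28). TEAD2 (0.31 against 0.11) and AJUBA (0.27 against 0.00) stood above their neighbours, and TEAD3 (-0.38) stood below its own (-0.10). The neighbours of TEAD2 were themselves higher, with quartiles of 0.02 and 0.20. Their median was 0.17 with the 10 nearest on either side. TEAD1 (-0.07) and TEAD4 (-0.02) lay within the quartiles of their neighbours. Copy number was not measured here, and its part in the values was not tested.

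**Figure D5:**
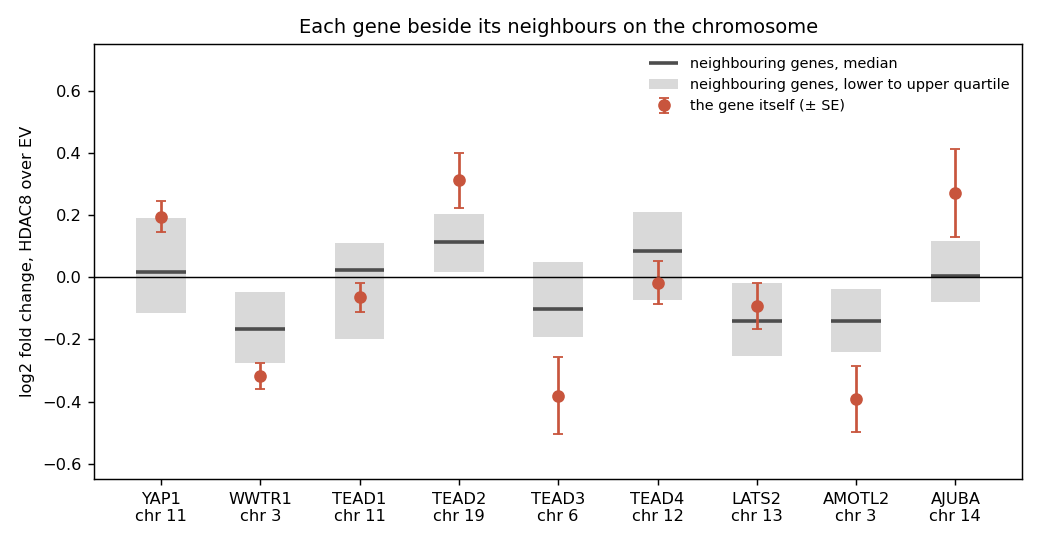
Log2 fold change, HDAC8 over EV, of each gene (red, with SE) beside the median (dark line) and the quartiles (grey bar) of its neighbouring genes. WWTR1, TEAD3 and AMOTL2 lie below their neighbours' quartiles, TEAD2 and AJUBA above them and YAP1 at its neighbours' upper quartile. The neighbours of WWTR1, LATS2 and AMOTL2 are themselves lower, and those of TEAD2 are themselves higher.

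The genes with the profile most like each coactivator were found among 9779 tested genes with at least 10 CPM, as the smallest root mean square distance between the centred log2 CPM values over the 6 libraries. For YAP1 they were MTR (0.0193), CKAP4 (0.0201) and SNRNP200 (0.0209), with a median distance of 0.150 over all candidates. For WWTR1 they were HEG1 (0.0163), CDKN2C (0.0176) and SLC25A40 (0.0181), with a median distance of 0.186. For AMOTL2, the gene of the largest change in size, they were TMEM104 (0.0315), RCL1 (0.0348) and RABGEF1 (0.0368), with a median distance of 0.221. These distances describe the 6 libraries alone, and the genes named by them are not in the lists above.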

How the data were processed

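RNA-seq of SK-MEL-28 cells, 3 libraries labelled EV and 3 labelled HDAC8, was used. Labels and methods name different kits (Aurum RNA, Ribo-Zero Plus and NEBNext directional against Direct-zol and TruSeq). The deposited table holds expected counts per Ensembl gene, which the authors made with Trimmomatic, STAR and RSEM (DESeq2 is also named in the submitters' processing notes, with GRCh38). The annotation is not given in the sources used here. A second deposited table holds the authors' log2 fold changes, p-values and group values and was not used. In each library 5351 to 5685 values were not whole, and all were rounded.

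In R 4.3.3, edgeR 4.0.16 (filterByExpr, TMM, glmQLFit, glmQLFTest, HDAC8 over EV) was fitted to all 6 libraries, with Benjamini-Hochberg adjustment over 16195 genes. Calls used an adjusted p below 0.05, and the study's fold threshold of 0.58 where named. The SE was derived from the size of the log2 fold change over the root of its F statistic. Replicates differed beyond sampling noise, and p-values measure the spread between these libraries. Floors cover counting error only. List symbols were matched by Ensembl identifier through GENCODE 44, which gave positions and exon lengths. Promoters are from RefSeq.

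The genes and lists were chosen with earlier results of these data known. Named genes are all 10 genes of the set, CCN1, CCN2, LATS1, STK3, STK4, NF2, VGLL4, list genes past both thresholds and the 3 nearest profiles of YAP1, WWTR1 and the gene of the largest change. Others were named after their values were seen. Of the genes this rule names, 1 is not reported here, though the list counts include it. Alternatives were DESeq2 1.42.0, upper-quartile and RLE normalization, no filter or at least 10 counts in every library, the replicate block and each library left out. For named genes outside the set, these alternatives were added after the data were seen. Scripts were tested on simulated data.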

Additional observations from a re-analysis of the deposited data

How the results depend on the processing

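Leaving out 1 library moved the count of higher genes in the set from 2 to between 0 and 2, that of lower genes from 3 to between 1 and 2, and that of lower core, upstream and cofactor genes from 10 to between 6 and 11. Over all tested genes the same step moved the higher count from 1790 to between 1270 and 1999. It moved the lower count from 1891 to between 1289 and 2119. Over 12 alternatives for each named gene, 393 values kept direction and call, 32 lost the call, 5 gained it and 2 changed sign: TEAD4 was 0.013 without EV replicate 2 (range -0.044 to 0.013 with 1 library left out) and VGLL4 0.033 without HDAC8 replicate 1 (range -0.097 to 0.033). Equal replicate numbers did not deviate together (correlations of -0.05, -0.12 and -0.08), and 0 libraries correlated best with their own number. With the replicate block the set still had 2 higher and 3 lower genes, and of the named genes STK4 (log2 fold change -0.17, adjusted p = 0.0519), NF2 (-0.17, 0.0661) and NT5E (-0.30, 0.0561) did not pass. With the longest transcript as gene length, WWTR1 over YAP1 was 3.79 in EV and 2.65 in HDAC8, and the TEAD1 share was 41.7% and 39.8%. With up to 10 neighbours on either side the medians were -0.23 (WWTR1), 0.17 (TEAD2), -0.040 (TEAD4), -0.22 (LATS2) and 0.035 (AJUBA). The cause of these shifts was not tested. The median over all tested genes stayed between 0.00 and 0.02 in all but 1 setting, -0.004 without HDAC8 replicate 3. With 3 libraries a group, exact permutation tests cannot go below 0.1, and ANKRD1 lay below the depth needed for a comparison.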
